A study of Homo sapiens with 4 samples.

Results

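Keratins other than KRT19 were followed on the 4 arrays of a study of HCCLM3, a human hepatocellular carcinoma cell line. The genes asked for were 9: KRT7, KRT8, KRT18, KRT15, KRT16, KRT17, KRT23, KRT80 and KRT81. Every probe set whose only gene symbol was one of these was taken, which gave 10 probe sets of 7 genes among 19775 named genes. KRT17 and KRT81 had no such probe set in the annotation table and are not analysed here. Of the 7 measured genes, 6 had a mean signal at or above the floor, the median signal of all probe sets, which was 52.9. KRT23 lay under it.

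The cells had been sorted magnetically by EpCAM, an epithelial adhesion molecule, and treated for 4 days. The EpCAM-negative fraction was transfected with miR-429 mimic, synthetic RNA that acts as the microRNA, or with a negative-control (NC) mimic, each at 100 nM. To the EpCAM-positive fraction antagomir-429, a cholesterol-conjugated antisense RNA, or an NC antagomir was added, each at 40 µM. All cells were of 1 line in serum-containing medium, and the mimic and antagomir arms differed in sort and in delivery reagent. Each of the 4 groups had 1 array, so no value below has a replicate error or a p-value, and precision is limited by that number of arrays. The title gives the search for miR-429 target genes as the purpose.

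The microRNA that was supplied or blocked is shown with its relatives, because its seed, bases 2 to 8 in capitals, is what it shares with some of them and not with others.
hsa-miR-429: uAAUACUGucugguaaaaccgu
hsa-miR-200b-3p: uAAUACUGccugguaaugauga
hsa-miR-200c-3p: uAAUACUGccggguaaugaugga
hsa-miR-200a-3p: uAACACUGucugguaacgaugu
hsa-miR-141-3p: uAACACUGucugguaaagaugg
The sequences are those of RefSeq (GRCh38.p14). The first 3 have the same seed, and the last pair differs from it at 1 base. No sequence of a keratin transcript was searched for this seed.

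Keratins are the intermediate filament proteins of epithelia. An acidic type I keratin pairs with a basic type II keratin, and the pairs assemble into filaments that are anchored at desmosomes. Hepatocytes make the simple-epithelial pair of KRT8 and KRT18, while bile duct cells also make KRT7 and KRT19. KRT15 belongs to basal cells of stratified epithelia and hair follicle, KRT16 and KRT17 are induced in stressed or wounded epidermis, and KRT23 and KRT80 are less studied members. In the RefSeq gene order, KRT8 and KRT18 are neighbours, as are KRT80 and KRT7, while KRT16 lies between KRT14 and KRT17.

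Cells of this line had little RNA of the hepatocyte marker genes. Of 11 such markers, 3 had a mean signal above the floor: APOA1, APOA2 and AFP, with signals from 55.0 to 119. Some markers with a mean under the floor passed it on single arrays, among them TTR (174) and HP (126) with the NC antagomir. Albumin, ALB, had signals of 33.2, 4.02, 51.0 and 30.8 in the order NC mimic, miR-429 mimic, NC antagomir, antagomir-429, all under the floor. Of 7 measured cholangiocyte markers 5 were above it. The summed signal of the 7 ran from 21449 to 29096, most of it that of MUC1 (18886.2 to 22643.5). SPP1 and CFTR were under the floor on all 4 arrays. Of 7 measured keratinocyte markers 3 were above it (KRT10, KRT14 and IVL), and 4 were not: KRT1, KRT5, DSG1 and DSG3. The markers of leukocytes and stroma had 6 of 10 measured genes above the floor, with a summed signal of 7788 to 11105, most of it that of the collagen COL1A1 (7162 to 10500.0). CD3E, PECAM1, PDGFRB and COL3A1 were dim but above the floor on all 4 arrays. PTPRC, CD14 and LYZ were under it on all 4, COL1A2 had a mean under it, and VWF was under it on the NC mimic and NC antagomir arrays. With the mimic all 6 of these markers above the floor had a positive ratio, with a median of 0.49, and CD3E and VWF were past 2-fold. With antagomir-429, 2 of the 6 were above 0 (median -0.42), and between the controls 4 were (median 0.29). Over all genes, 49.9% were above 0 with the mimic, 51% with antagomir-429 and 47.8% between the controls. The part of these markers in the keratin results was not tested. EPCAM, the sorted marker, had a signal of 1106 with the NC mimic and 1235 with the NC antagomir, so the controls of the negative and positive sorts were 0.16 log2 units apart. The EPCAM signal was 3838 with the miR-429 mimic, 3.47-fold above the NC mimic, and 913 with antagomir-429 (log2 ratio -0.44).

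KRT18 and KRT8, the pair of simple epithelia, were bright on all 4 arrays and varied little. The KRT18 signal was 50498 with the NC mimic, 42723 with the miR-429 mimic, 48460 with the NC antagomir and 49506 with antagomir-429. That of KRT8 was 33449, 28365, 33183 and 30623 in the same order. In both genes the miR-429 mimic array was the lowest, and the whole range over the arrays was 0.24 log2 units.

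**Figure D1:**
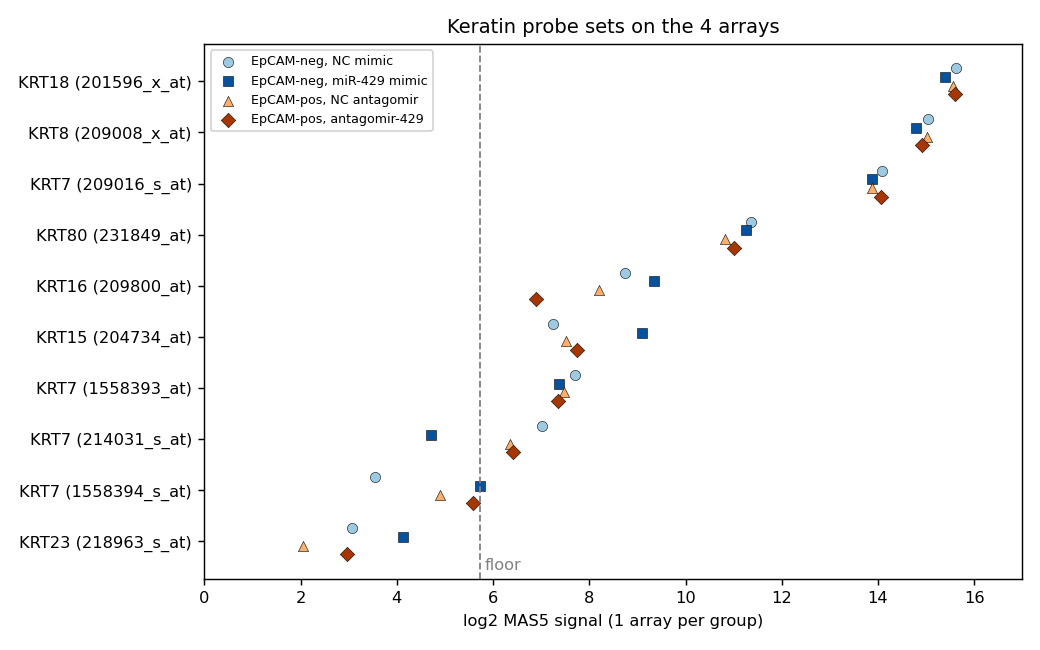
Log2 MAS5 signal (x axis) of the 10 keratin probe sets (y axis, by mean signal, with probe set identifiers) on the 4 arrays. Each symbol is 1 array, and the dashed line is the floor, a log2 signal of 5.73. KRT18, KRT8 and the brightest KRT7 probe set stay within 0.24 log2 units over the arrays, while KRT16 spans 2.45 and KRT15 spans 1.85.

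With the miR-429 mimic both members of this pair had nearly the same log2 ratio to the NC mimic, -0.24 for KRT18 and -0.24 for KRT8, a difference of 0.003 between them. Genes of like signal, within 0.5 log2 units of the member's mean, were lower in the same comparison: their median was -0.34 for the 162 genes around KRT18 and -0.29 for the 201 around KRT8. The pair therefore lay above these medians, and 77.2% of the genes around KRT18 and 59.7% of those around KRT8 had a lower ratio. Under quantile normalization the direction turned, to 0.06 for KRT18 and 0.01 for KRT8.

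With antagomir-429 the log2 ratio to the NC antagomir was 0.03 for KRT18 and -0.12 for KRT8, a difference of -0.15 for KRT8 minus KRT18. Both lay inside the middle 95% of genes of like signal, -0.13 to 0.15 around KRT18 and -0.26 to 0.20 around KRT8. With median centring the KRT18 value was -0.004. Between the controls, the EpCAM-positive over the EpCAM-negative array, KRT18 had -0.06 and KRT8 -0.01, and quantile normalization turned both (0.08 and 0.11).

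KRT8 and KRT18 were each measured by 1 probe set whose identifier carries the mark for probes that may be shared with similar transcripts. Neither set was checked here for such sharing. KRT8 has many processed pseudogenes, so its signal may include RNA of these copies. The annotation names KRT8P12, one such pseudogene, for a pair of probe sets. The brighter had signals of 410, 491, 401 and 439 over the arrays in the order above, and the dimmer 279, 196, 132 and 207. The dimmer was lower with the mimic (log2 ratio -0.51) and the brighter was higher (0.26), so the probe sets of this pseudogene disagreed in direction.

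KRT7, a type II keratin of ducts and glands, was bright by 1 of its 4 probe sets. The bright set, 209016_s_at, had signals of 17438 with the NC mimic, 15026 with the miR-429 mimic, 15025 with the NC antagomir and 17153 with antagomir-429. The NC mimic and antagomir-429 arrays were thus the higher pair and the other arrays the lower. Its log2 ratio was -0.21 with the mimic, 0.19 with antagomir-429 and -0.21 between the controls. For the mimic, 45.7% of the 394 genes of like signal had a lower ratio. For antagomir-429, 94.7% did, and the value was still inside the middle 95% (-0.28 to 0.25).

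The other KRT7 probe sets were dim, and 214031_s_at alone had the same higher pair of arrays. The set 1558393_at had signals of 207, 166, 178 and 162 in the order NC mimic, miR-429 mimic, NC antagomir, antagomir-429, so antagomir-429 was the lowest array there, with a log2 ratio of -0.13 in place of 0.19. The set 214031_s_at had 129, 26.2, 81.5 and 85.1, and the miR-429 mimic array under the floor made it at least 2.4-fold lower than the NC mimic array. Its ratios had the sign of the bright set in all 3 comparisons (-2.30, 0.06 and -0.66). The set 1558394_s_at had 11.7, 53.3, 29.9 and 48.2 and a mean under the floor. Sets 214031_s_at and 1558394_s_at had their lowest and highest array, respectively, with the mimic.

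KRT80, a type II keratin next to KRT7 in gene order, had signals of 2614 with the NC mimic, 2454 with the miR-429 mimic, 1797 with the NC antagomir and 2052 with antagomir-429. Both EpCAM-negative arrays were above both EpCAM-positive arrays. The log2 ratio between the controls was -0.54, close to the lower bound of the middle 95% of 1354 genes of like signal (-0.55), and 2.88% of them had a lower ratio. The sort and the reagent both differed between these arrays and cannot be told apart. The mimic (-0.09) and antagomir-429 (0.19) ratios were inside the range of genes of like signal.

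KRT15, a type I keratin of basal cells, was the member with the largest ratio to its control in the mimic arm. Its single probe set, 204734_at, reached 544 in signal under the miR-429 mimic, against 151 with the NC mimic, 182 with the NC antagomir and 214 with antagomir-429. The miR-429 mimic array stood above the other 3. The mimic over the NC mimic was 3.60-fold, a log2 ratio of 1.85, and 99.8% of the 1773 genes of like signal had a lower ratio. Against the NC antagomir array, which differs also in sort and reagent, it was 1.58. The ratio with antagomir-429 was 0.24 and that between the controls 0.26, both inside the range of genes of like signal.

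KRT16, a type I keratin of stressed epidermis, had its highest signal with the miR-429 mimic and its lowest with antagomir-429. The signals of its single probe set, 209800_at, were 428 with the NC mimic, 649 with the miR-429 mimic, 293 with the NC antagomir and 119 with antagomir-429. With antagomir-429 it was 2.47-fold lower than on the NC antagomir array (log2 ratio -1.31), and 0.333% of the 1800 genes of like signal had a lower ratio. With the mimic it was 1.52-fold higher (0.60), inside the middle 95% of genes of like signal (-0.95 to 1.14). These comparisons share no array. Between the controls KRT16 was lower on the EpCAM-positive array (-0.54), also inside that range, so the mimic ratio against the NC antagomir array was 1.15. KRT16 is close in sequence to KRT14 and KRT17, and its probes were not checked here for sharing.

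**Figure D2:**
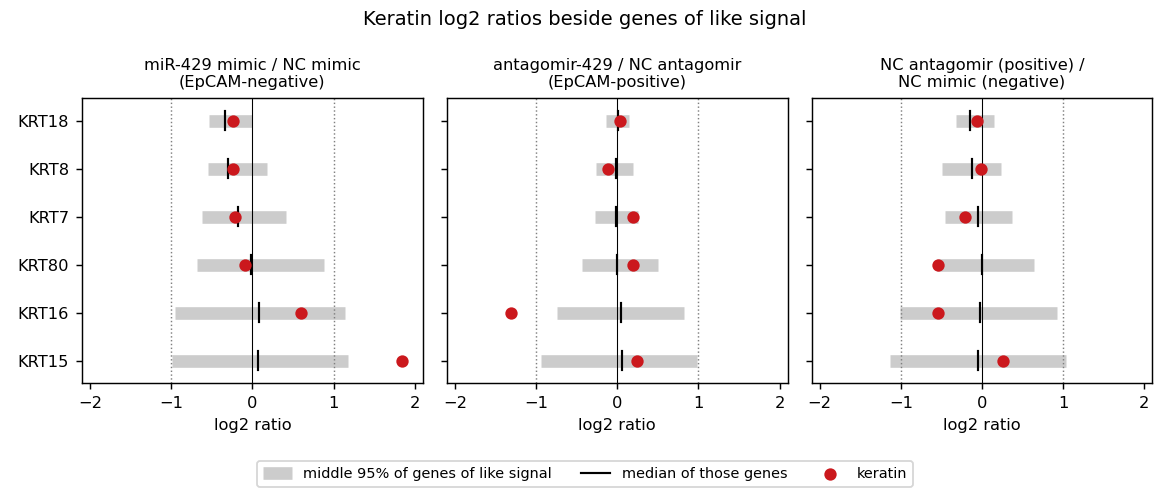
Log2 ratio (x axis) of the 6 keratins above the floor (y axis) in the 3 comparisons, 1 array over 1 array. Red points are the keratins, grey bars the middle 95% of genes within 0.5 log2 units of the same mean signal and black ticks their median. KRT15 with the mimic (1.85) and KRT16 with antagomir-429 (-1.31) lie outside their grey bars, and the other points lie inside.

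KRT23, a type I keratin, had signals of 8.41, 17.5, 4.16 and 7.75 over the arrays in the order NC mimic, miR-429 mimic, NC antagomir, antagomir-429. All lay under the floor of 52.9, so no fold is given.

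Counted over the 6 keratins above the floor, 1 was at least 2-fold higher with the miR-429 mimic (KRT15) and 0 were lower, beside 4.2% and 2.88% of all 13180 genes above the floor. With antagomir-429, 0 were higher and 1 was lower (KRT16), beside 2.41% and 2.22% of all genes. Between the controls 0 were past 2-fold in either direction, beside 2.39% higher and 3.54% lower. The median log2 ratio of the 6 was -0.15 with the mimic, 0.11 with antagomir-429 and -0.14 between the controls, and that of all genes was -0.002, 0.01 and -0.02. With the mimic 2 keratins were above 0 and 4 below (KRT7, KRT8, KRT18 and KRT80), beside 49.9% and 50.1% of all genes. With antagomir-429, 4 were above 0 and 2 below, KRT8 and KRT16, beside 51% and 49%. Between the controls KRT15 alone was above 0 and 5 were below, beside 47.8% and 52.2%. Median centring moved the mimic ratio of all genes to a median of -0.11. It changed the split of all genes past 2-fold from 554 higher and 380 lower (59.3% higher) to 405 and 492 (45.2%), and left KRT15 as the 1 keratin past 2-fold. A count of 1 among 6 genes does not set the family apart from the rest.

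**Figure D3:**
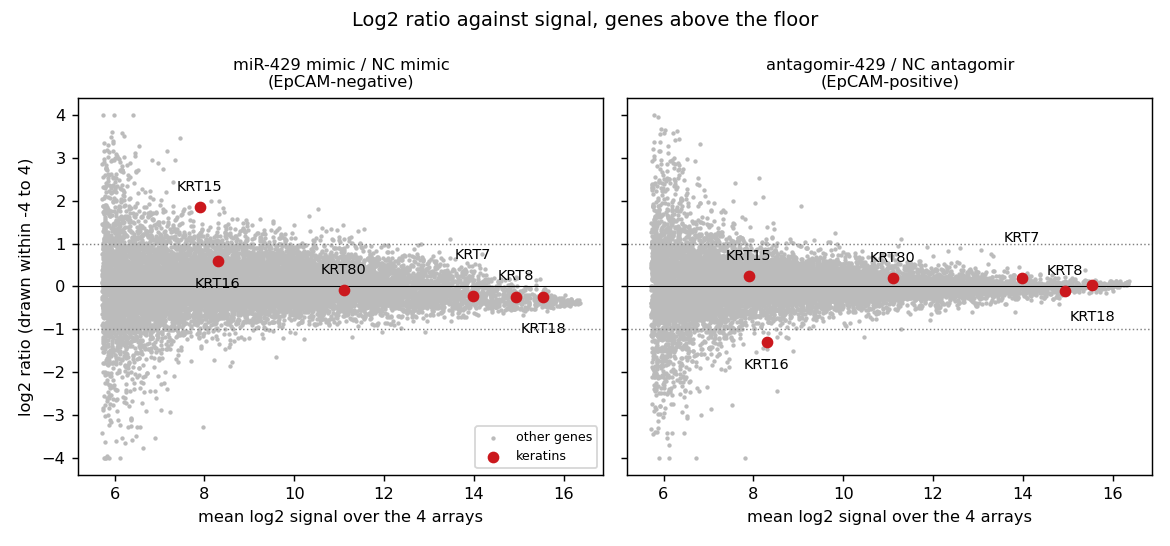
Log2 ratio (y axis, drawn within -4 to 4) against mean log2 signal (x axis) for the 13180 genes above the floor, with the 6 keratins in red. The left panel is miR-429 mimic over NC mimic and the right panel antagomir-429 over the NC antagomir. At the bright end of the left panel the genes bend below 0, and KRT7, KRT8 and KRT18 sit within that band, while KRT15 stands above the genes around it and KRT16 stands below them in the right panel.

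The type II and type I members can be set side by side by role. Of the simple-epithelial and ductal keratins, KRT7 (brightest probe set), KRT8 and KRT18 differed by at most 0.03 log2 units in their mimic ratio. Under quantile normalization these ratios were -0.07, 0.01 and 0.06. Without it, the dimmer KRT7 probe sets gave -0.32, -2.30 and 2.19, the last from a set under the floor. KRT8 minus KRT7 was -0.31 with antagomir-429. Of the keratins of stratified epithelia, KRT15 and KRT16 differed by 1.24 in the mimic ratio and by 1.55 in the antagomir ratio. KRT15 was the higher in both. These genes were dimmer, where ratios spread more widely. With the mimic the middle 95% of genes of like signal was -0.99 to 1.18 around KRT15 and -0.53 to -0.005 around KRT18. KRT80 and KRT7, the neighbours, had antagomir ratios of 0.19 and 0.19, and mimic ratios of -0.09 and -0.21. Between the controls they had -0.54 and -0.21. These KRT7 values are those of its brightest probe set, and the next brightest gave -0.13 with antagomir-429.

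The genes with the most similar course over the 4 arrays were found by the distance between log2 profiles centred on their means, among 13161 genes that are not keratins. Nearest to KRT16 were FILIP1L (distance 0.18), GDF7 (0.25) and UBASH3B (0.26), and nearest to KRT15 were GNRH2 (0.19), KIAA0232 (0.21) and PPP1R14C (0.24). Nearest to KRT80 were TES, a focal adhesion protein (0.04), PLAC1 (0.05) and MAGEA12 (0.06). Each profile has 4 points, and several of these genes were dim, such as FILIP1L with signals from 21.6 to 136. The range over the arrays was 2.45 log2 units for KRT16, 1.85 for KRT15 and 0.54 for KRT80. The distances can therefore not be compared between members, and no background distance was computed.

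Among the other keratins 13 of 37 genes were above the floor, and most of those were dim. KRT10, a type I keratin of suprabasal epidermis, was the bright one. Its brightest probe set had signals of 18098, 13316, 15048 and 14162 in the order NC mimic, miR-429 mimic, NC antagomir, antagomir-429. The mimic ratio of that set was -0.44, and the other 2 probe sets gave -0.33 and -0.31. KRT7 was about as bright, and the genes of like signal around it had a median mimic ratio of -0.18. Their middle 95% was -0.62 to 0.41, which holds the KRT10 values. With the mimic 3 of the 13 were at least 2-fold higher and 2 lower, beside 4.2% and 2.88% of all genes, with a median of -0.01. KRT13, a mucosal keratin that precedes KRT15 in gene order, had signals of 102 with the NC mimic, 257 with the miR-429 mimic, 145 with the NC antagomir and 214 with antagomir-429. Its mimic ratio was 2.53-fold. KRT75 was at least 2.6-fold higher and KRT3 at least 2.4-fold, both from NC mimic signals under the floor, and KRT79 was 2.57-fold lower, from 137 to 53.4. The remaining gene, KRT32, at least 2.2-fold lower from 116, was named after its values were seen.

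With antagomir-429, 0 of these 13 were at least 2-fold higher and 1 was lower, beside 2.41% and 2.22% of all genes. The lower one was KRT33B, at least 2.2-fold, from 115 to a signal under the floor. Between the controls 1 was higher and 4 were lower on the EpCAM-positive array (3 under quantile normalization), beside 2.39% and 3.54% of all genes, with a median of -0.41. KRT76 was the higher one, by at least 2.8-fold. KRT14, the neighbour of KRT16 and a keratin of basal epidermis, was 2.03-fold lower (181 and 89.2), KRT38 at least 2.1-fold, KRT79 at least 2.6-fold and KRT32 2.02-fold. KRT19 had signals of 12.4, 12.2, 6.01 and 4.33 by its brighter probe set, all under the floor.

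Of 20 keratin partners and desmosomal genes above the floor 15 had a positive mimic ratio, with a median of 0.28 (0.17 with median centring, where 12 were positive), beside 49.9% of all genes above 0. Between the controls, which share the NC mimic array with that comparison, 15 of the 20 were also above 0, beside 47.8% of all genes. With antagomir-429 12 were, beside 51%. The leukocyte and stroma markers above the floor were also all above 0 with the mimic. DSP, desmoplakin, which ties keratin filaments to the desmosome, had signals of 1662 with the NC mimic, 4230 with the miR-429 mimic, 3065 with the NC antagomir and 3859 with antagomir-429. The NC mimic array was the low one, and the mimic ratio was 2.55-fold. ITGA6, the hemidesmosomal integrin chain, was 2.39-fold higher (548 and 229). EVPL, envoplakin, was 2.73-fold lower (84.6 and 231), and its NC antagomir signal was 79.4. With antagomir-429, 0 of the 20 were past 2-fold, beside 2.41% of all genes higher and 2.22% lower, and the median was 0.08. The largest ratios there were those of PKP1, a plakophilin (-0.89), and EVPL (0.82). Between the controls EVPL was the only one past 2-fold, at 2.90-fold lower, and the median was 0.17.

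Other intermediate filament genes had no common direction. With the mimic 6 of 12 were above 0 and 6 below, beside 49.9% and 50.1% of all genes. The median was 0.05 (-0.06 with median centring), and 0 were past 2-fold, beside 4.2% of all genes higher and 2.88% lower. The largest were INA, a neuronal filament protein (0.81), and BFSP1, a lens filament protein (0.75). VIM, vimentin, was bright on all arrays, with signals of 37889, 36016, 40963 and 41079 in the order NC mimic, miR-429 mimic, NC antagomir, antagomir-429. It was named as the filament protein of mesenchymal cells after its values were seen, and its mimic ratio was -0.07. With antagomir-429 the median was -0.16 and BFSP1 was 2.24-fold lower. Between the controls the median was 0.12 and BFSP1 was 2.06-fold higher.

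The list of epithelial and squamous regulators also holds SP1, NFE2L2, AHR and CEBPA, factors that are not particular to such cells. Of its 14 members past the floor 11 were above 0 with the mimic, beside 49.9% of all genes. Their median was 0.27 (0.17 with median centring). GRHL1, a Grainyhead-like factor of epidermis, was 2.69-fold higher (161 and 59.8), where 4.2% of all genes were at least 2-fold higher. With antagomir-429, 9 of 14 were below 0, beside 49% of all genes, and the median was -0.08. AHR, the aryl hydrocarbon receptor, was 3.38-fold lower, from 209 to 61.8, where 2.22% of all genes were at least 2-fold lower. Between the controls 7 were above 0 and 7 below, beside 47.8% and 52.2% of all genes, with GRHL1 (0.93) and CEBPA (0.58) the largest.

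Genes of the cornified envelope and of keratinocyte stress had 9 of 15 above 0 with the mimic, beside 49.9% of all genes. Their median was 0.18, which was 0.07 with median centring (8 above 0) and 0.08 with quantile normalization. LCN2, an iron-siderophore binding protein, was 2.49-fold higher (537 and 216), and the envelope gene SPRR2B, under the floor on the NC mimic array, was at least 2.3-fold higher. With antagomir-429, 0 of 15 were past 2-fold, beside 2.41% of all genes higher and 2.22% lower. In that comparison 9 were below 0, beside 49% of all genes, and the median was -0.17. The largest ratios were those of SPRR1A, at least 1.9-fold lower, and TGM1, the transglutaminase of the envelope (0.64). Between the controls 1 was past 2-fold, beside 2.39% of all genes higher and 3.54% lower. It was TGM1, at least 2.8-fold higher on the EpCAM-positive array, and the list median between the controls was -0.10. Under either scaling 2 genes of this list were past 2-fold there.

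**Figure D4:**
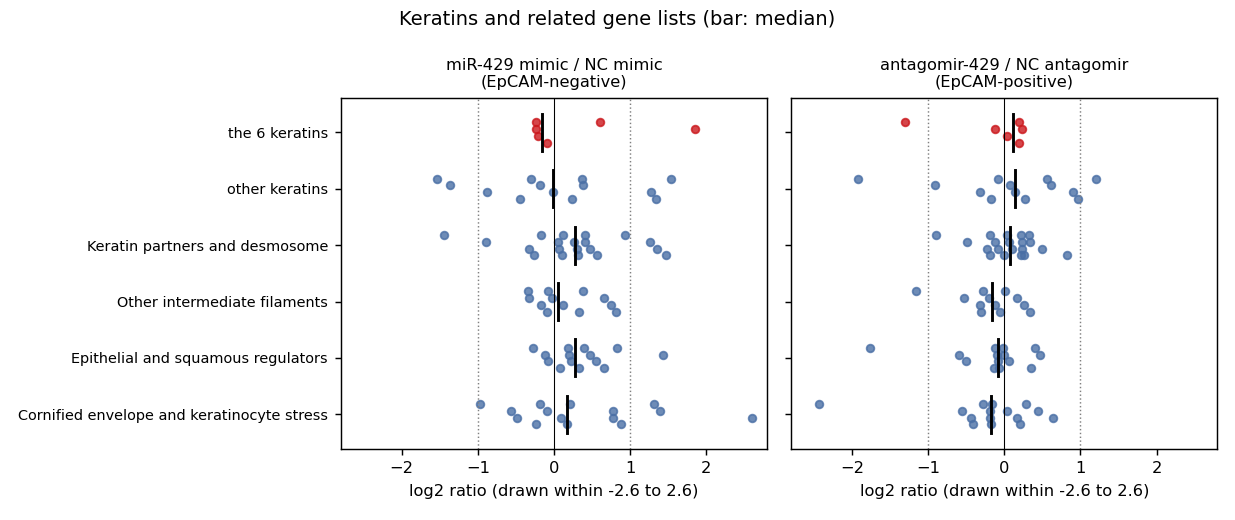
Log2 ratio (x axis, drawn within -2.6 to 2.6) of single genes above the floor in the 6 keratins (red) and 5 related lists (blue), for the mimic (left) and antagomir-429 (right). Black bars are list medians and dotted lines mark 2-fold. The median of the list of keratin partners and desmosomal genes is 0.28 on the left and 0.08 on the right. That of the 6 keratins is -0.15 and 0.11.

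Single genes scattered most where they were dim: in the dimmest of 4 signal bins the robust SD of the mimic ratio was 0.82, and in the brightest 0.36. KRT15 and KRT16 belong to the second bin, with a robust SD of 0.53 with the mimic and 0.41 with antagomir-429.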

How the data were processed

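RNA of 4 samples was hybridised to Affymetrix Human U133 Plus 2.0 arrays, 1 per group. The deposited values are log2 MAS5 signals, per the submitters' processing notes. The version of MAS5 and its detection calls were not given in the sources used here. On the linear scale every array had a 2% trimmed mean of 500.1, so no scaling was added. After 62 control probe sets were left out, 41091 probe sets had 1 gene symbol in the platform annotation. Each gene was represented by its brightest probe set. Genes with a mean log2 signal at or above the median of all probe sets (5.73) were counted, 13180 in all. An array under this floor was raised to it before a fold was counted, and such folds are given as "at least". Otherwise ratios are as measured, with no offset. Named genes were all members with every probe set, up to 4 genes of each list past 2-fold or else its 2 largest, EPCAM, and the 3 nearest profiles of the 3 most variable members. The members and lists were chosen with earlier results of these data known. The scripts (Python 3.11.15, pandas 2.3.3) were tested on simulated data, a copy of the NC mimic array with set changes added and no noise. That test checks the calculation and cannot show the precision of single arrays.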

Additional observations from a re-analysis of the deposited data

How the results depend on the processing

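With the floor at the 75th percentile of signal, 266, KRT15 was no longer among the genes counted, and 0 keratins passed 2-fold upward in the mimic arm. The same floor raised the antagomir-429 signal of KRT16, which left 0 keratins at least 2-fold lower there. With no floor, KRT23 was added at signals of 17.5 or less, giving 2 keratins higher with the mimic and 1 lower between the controls. The other counts among the 6 keratins past 2-fold were the same under all 7 alternatives: quantile normalization, median centring, both floors, 13.2 signal units added to each signal, the median over probe sets, and only probe sets without the mark of shared probes. The last left out KRT8 and KRT18, which have no such probe set. Of 123 ratios of single keratins recomputed, 120 moved by less than the robust SD of genes in the same signal bin, and 0 of those past 2-fold changed sign. Many of the 120 could not move, because a floor does not enter a ratio as measured. A gene with 1 probe set also keeps its ratio under the probe set settings, unless it is left out. The count of 120 is therefore no measure of how stable the ratios are. The 3 that moved more were KRT16 (1.15), KRT80 (0.45) and KRT7 (-0.13). Those of KRT16 and KRT80 were mimic ratios against the NC antagomir array. They moved by the gap between the controls, -0.54 for KRT16 and -0.54 for KRT80, with the sign turned. That of KRT7 was the antagomir-429 ratio without the shared probe sets, where the dim set 1558393_at stood for the gene. Why the controls or the KRT7 probe sets differed was not tested. Over its alternatives the mimic ratio of KRT15 ran from 1.58 to 1.85, and the antagomir ratio of KRT16 from -1.34 to -1.22. No paired analysis was possible because each group has 1 array. Leaving out an array would empty a group.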
